A study of Triticum urartu with 18 samples.

Results

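Tuglup3 is gene TRIUR3_18628 of *Triticum urartu*, a wild diploid wheat. It was taken by its identifier as 1 row of 27121 genes in the deposited expression table, where it is annotated as Tuglup3, a name it shares with the rice gene Glup3. The gene was selected on its measured FPKM values across the stages, in particular its lower level at 15 than at 10 days post anthesis (DPA) and at 25 than at 5 DPA. Its own levels and differences are therefore a description and carry no test. The study sequenced RNA from untreated, field-grown plants of 1 wild-type accession, PI 428198. Endosperm, the starch- and protein-storing tissue of the grain, was taken at 5, 10, 15, 20 and 25 DPA, and flag leaf, the uppermost leaf below the ear, at 10 DPA. Each of these 6 groups had 3 libraries, described as biological replicates in the labels. Per the labels the endosperm had been freed of embryo, aleurone and the outer grain layers. FPKM, the unit of the table, counts mapped fragments relative to transcript length and to the library's mapped total. Libraries are numbered by their columns, whose headings name a group without saying which of its samples a column holds.

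In rice, Glup3 encodes a vacuolar processing enzyme, an asparaginyl endopeptidase of the protein storage vacuole. Seed storage proteins enter the endoplasmic reticulum, are folded there with the help of protein disulfide isomerase, and reach the vacuole in vesicles that depend on small GTPases such as Rab5a. In the vacuole, enzymes of the Glup3 kind cleave the precursors of glutelins and other globulin-type proteins into their mature chains, and rice mutants without it accumulate the uncleaved precursors. The main wheat reserves are prolamins, namely gliadins and glutenins, which form the gluten of the flour. These roles are background from rice; what the protein of TRIUR3_18628 does was not measured here.

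The libraries differed in depth and in composition. Relative depth, judged by the step between the lowest FPKM values, was lowest in flag leaf library 1, at 0.320 of that of 10 DPA library 1, and highest in 10 DPA library 2, at 1.06. A set of 12 genes, those that reached the highest FPKM anywhere in the table, held 83.2% to 86.1% of the total FPKM at 20 DPA, against 53.3% to 54.7% at 15 DPA. At 25 DPA library 1 resembled the 20 DPA libraries, with 85.4%, and libraries 2 and 3 had 44.5% and 45.7%. At 10 DPA the tissue labels matched the storage protein transcripts. The 21 prolamin genes summed to 312449 to 318930 FPKM in endosperm at 10 DPA, against 17.0 to 21.3 FPKM in flag leaf. In the 5 DPA libraries they summed to 39.9 to 169 FPKM, so the prolamins are a far weaker check of the label at that stage.

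Tuglup3 was abundant in young endosperm, close to undetected late in filling, and listed at 0 in leaf. At 5 DPA its level was 1731, 1836 and 1496 FPKM in the 3 libraries, a mean of 1688 ± 174 (SD, n = 3). At 10 DPA it was 1012, 1036 and 1054 FPKM, a mean of 1034 ± 21.1 (SD, n = 3). At 15 DPA it was 43.1, 46.9 and 26.7 FPKM, a mean of 38.9 ± 10.7 (SD, n = 3). The 5, 10 and 15 DPA libraries did not overlap, and the order of these stages as deposited was 5, 10, 15 DPA from high to low. At 20 DPA the libraries had 1.61 and 1.02 FPKM, and library 3 was listed at 0. At 25 DPA they had 1.00, 5.93 and 0 FPKM in libraries 1, 2 and 3, so the 20 and 25 DPA libraries overlapped and had no order. In flag leaf all 3 libraries were listed at 0, as were 20 DPA library 3 and 25 DPA library 3. In bulk tissue, fewer cells that carry the transcript and less transcript per cell cannot be told apart.

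**Figure D1:**
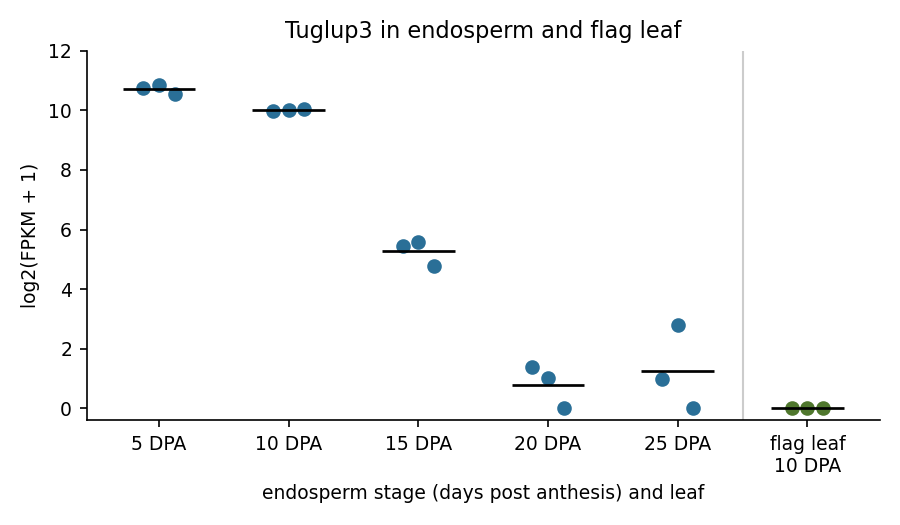
Tuglup3 level in each library as log2(FPKM + 1), for endosperm at 5 stages (blue) and flag leaf at 10 DPA (green). Points are the 3 libraries of a group and bars are their means. The 5 and 10 DPA libraries lie between 1012 and 1836 FPKM, the 15 DPA libraries between 26.7 and 46.9 FPKM, and the leaf libraries at 0; median-ratio scaling turns the order of 5 and 10 DPA round.

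Tuglup3 ranked among the more abundant transcripts of the early grain. It was the 59th, 55th and 86th most abundant of all genes in the 5 DPA libraries and the 89th, 92nd and 83rd at 10 DPA. At 15 DPA its ranks were 890, 858 and 1292. Its 15 DPA mean was 3.76% of its 10 DPA mean. Among the 94 genes that averaged 1000 FPKM or more at 10 DPA, a threshold chosen after its values were seen, the median gene kept 88.6% of its 10 DPA level at 15 DPA. The 94 include most of the prolamin genes, and some of them, such as TRIUR3_00006 and TRIUR3_00017, hold the same values as each other. The median is thus no measure of genes at the level of Tuglup3. Those nearest to it, with 10 DPA means of 1008 to 1056 FPKM, stood at 16.7% to 39.6%, apart from TRIUR3_05010 at 297%. Of those 94 genes, 3 had under 5% of their 10 DPA level at 15 DPA. Tuglup3 was the second lowest, above the unannotated TRIUR3_00666 at 0.0408%. The third was TuSuSy2, a sucrose synthase that feeds sucrose carbon into starch, at 3.91%.

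**Figure D2:**
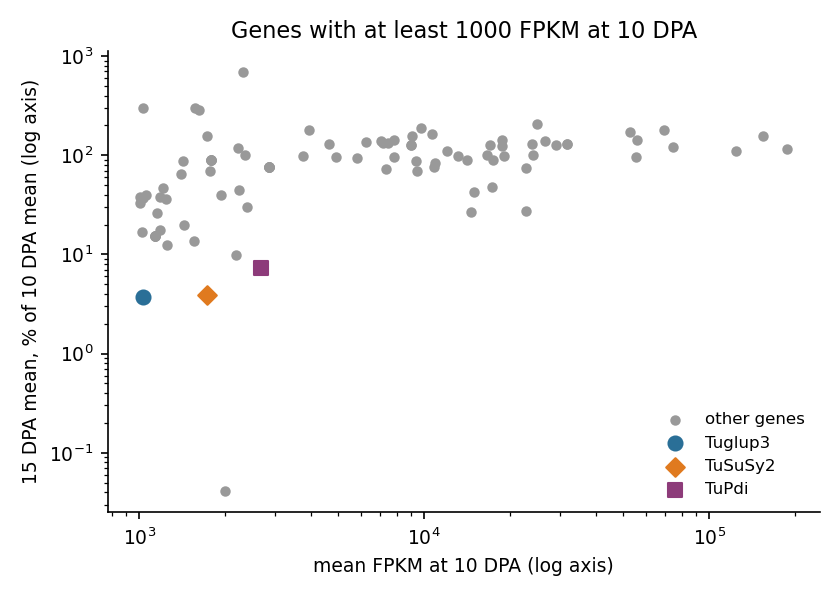
Each point is 1 of the 94 genes that averaged 1000 FPKM or more at 10 DPA, and genes with the same values coincide. The x axis is the 10 DPA mean and the y axis the 15 DPA mean as a percentage of it, both on log axes. Tuglup3 (circle) lies at 3.76%, TuSuSy2 (diamond) at 3.91% and TuPdi (square) at 7.33%. The median of 88.6% includes most of the prolamin genes and the genes with the same values.

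On the log2(FPKM + 1) scale, Tuglup3 differed by -0.70 (SE 0.66) at 10 against 5 DPA, in the limma model fitted to the 19418 genes tested in endosperm. The SE is the same for every pair of stages, since the fit shares 1 spread per gene over the 15 endosperm libraries. That spread includes the low values of 20 and 25 DPA and is not that of the compared stages alone. The median of all those genes was -1.23, and 73.7% of them had a lower difference than Tuglup3. Setting the median ratio of the libraries to a common value (median-ratio scaling) turned its difference at 10 against 5 DPA to 0.56. Which of these stages was the higher one therefore depended on the scaling. At 15 against 10 DPA its difference was -4.74 (SE 0.66), the 92nd lowest of all genes tested, where the median gene stood at -0.65. At 20 against 15 DPA it was -4.48 (SE 0.66), the 206th lowest, with a median gene at -1.09. At 25 against 20 DPA it was 0.46 (SE 0.66) with a median gene at 1.00, and over the whole period, 25 against 5 DPA, it was -9.45 (SE 0.66). After median-ratio scaling the differences at 15 against 10 DPA, 20 against 15 DPA and 25 against 5 DPA were -3.98, -2.96 and -6.93, in the same direction. That at 25 against 20 DPA was -0.55, the opposite sign, and as deposited but without 25 DPA library 2 it was -0.30. Differences that involve 20 or 25 DPA also depended on the pseudocount, and with 0.1 in place of 1 the difference at 20 against 15 DPA was -6.04.

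Set against the storage proteins, Tuglup3 was high at 5 DPA, before the prolamin transcripts accumulated. At 10 DPA both were high, with Tuglup3 at 1012 to 1054 FPKM. At 15 DPA, where the prolamin sum was highest as deposited, Tuglup3 was low. The 21 prolamin genes together stood at 39.9, 169 and 107 FPKM at 5 DPA, below Tuglup3 in every library. At 10 DPA they stood at 312449, 315918 and 318930 FPKM, and at 15 DPA at 426073, 400999 and 429195 FPKM. A ratio taken within a library is not changed by any scaling between libraries. For each FPKM of Tuglup3 there were 0.0230, 0.0920 and 0.0714 FPKM of prolamins at 5 DPA. The same ratio was 309, 305 and 303 at 10 DPA, and 9877, 8556 and 16075 at 15 DPA. It was 20211 and 44564 in 20 DPA libraries 1 and 2, and 13785 and 37788 in 25 DPA libraries 1 and 2. No ratio could be formed where Tuglup3 was listed at 0. The ratios of 5, 10 and 15 DPA did not overlap, and those of 15 DPA overlapped with those of 25 DPA.

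**Figure D3:**
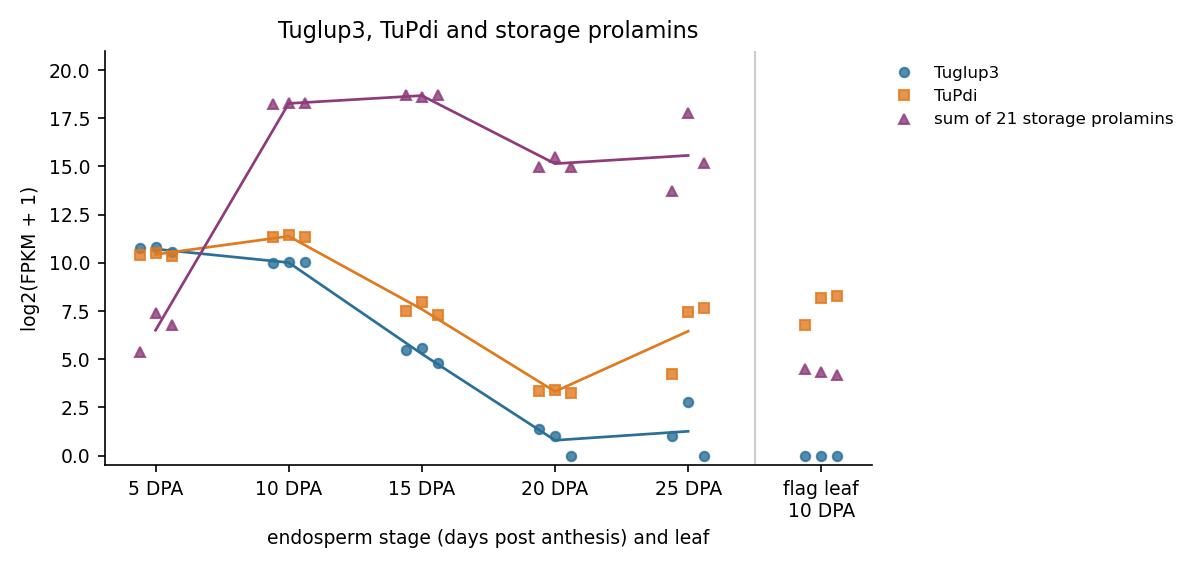
Tuglup3 (circles), TuPdi (squares) and the sum of 21 storage prolamin genes (triangles) as log2(FPKM + 1) in each library, with lines through the stage means of endosperm and flag leaf at the right. Tuglup3 lies above the prolamin sum at 5 DPA and below it at every later stage, while the prolamin sum is highest at 15 DPA, at 400999 to 429195 FPKM.

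Single prolamin genes ran apart from Tuglup3 in the same way. As deposited, none of the 21 had its highest stage mean at 5 DPA, where Tuglup3 had its own; 6 were highest at 10 DPA and 15 at 15 DPA. Over all 19418 genes tested, 82.2% were highest at 5 DPA. The high molecular weight glutenin gene TuGlu-1Ax, which encodes a backbone subunit of gluten, averaged 18467 FPKM at 15 DPA, 189% of its 10 DPA mean, and TuGlu-1Ay 9494 FPKM, or 133%. The pair of most abundant low molecular weight glutenin genes, TuA3-538a first, stood at 138% and 129% of their 10 DPA means. The α-gliadin genes Gli-α-8 and Gli-α-11 stood at 126% and 100.5%, and Gli-γ-1 and Gli-γ-3 at 173% and 125%. Tuglup3 stood at 3.76% on the same measure.

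By limma, with a call at a Benjamini-Hochberg adjusted p under 0.05 and a log2 difference of at least 1, 21 of 21 prolamin genes rose at 10 against 5 DPA. Of all genes tested, 3.16% rose in that comparison. At 15 against 10 DPA limma called 0 of 21 (0 at an unadjusted p under 0.05), while 1.28% of all genes were called higher and 16.7% lower. At 20 against 15 DPA 21 of 21 fell, against 43.0% of all genes (0.690% were called higher), and after median-ratio scaling 0 of 21 were called. As deposited, the prolamins were thus called lower at 20 DPA, while Tuglup3 was already lower at 15 DPA. Tuglup3 was lower again at 20 DPA (log2 difference -4.48, or -2.96 after median-ratio scaling), so its course and theirs were not simply 1 interval apart. At 25 against 20 DPA limma called 0 of 21 prolamins (0 at an unadjusted p under 0.05), against 35.3% of all genes called higher and 0.154% lower. Without 25 DPA library 1, 6 of 21 were called higher, and after median-ratio scaling 13 were called lower. Over the whole period, 21 of 21 rose at 25 against 5 DPA, where 3.60% of all genes rose and 72.0% fell. The 25 DPA libraries were far apart, with prolamin sums of 13785, 224083 and 37351 FPKM in libraries 1, 2 and 3. Tuglup3 had 1.00, 5.93 and 0 FPKM in them, against 1496 to 1836 FPKM at 5 DPA.

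The table names 4 further genes after the path that storage proteins take to the vacuole. TuPdi (TRIUR3_24343) is named after protein disulfide isomerase, which forms the disulfide bonds of storage proteins in the endoplasmic reticulum. Tuglup4 (TRIUR3_25319) is annotated as the small GTPase Rab5a, and in rice Glup6 encodes the exchange factor that activates Rab5a and Glup2 a Golgi transport protein. TuPdi was the one whose level came near that of Tuglup3. Per FPKM of TuPdi there were 1.27, 1.24 and 1.13 FPKM of Tuglup3 at 5 DPA and 0.387, 0.366 and 0.412 at 10 DPA. At 15 DPA there were 0.236, 0.189 and 0.171, and at 20 and 25 DPA 0 to 0.176. Within a library, then, Tuglup3 exceeded TuPdi at 5 DPA and stayed below it at every later stage, and the ratios of 5, 10 and 15 DPA did not overlap.

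TuPdi had 2615, 2835 and 2558 FPKM at 10 DPA, against 1360, 1478 and 1324 FPKM at 5 DPA. The libraries did not overlap. Its log2 difference of 0.94 (SE 0.76, limma adjusted p = 0.291) did not pass the test as deposited, in the fit of all 15 endosperm libraries. With the compared groups fitted alone the limma adjusted p was 0.000161, and the difference of 0.94 stayed under the size threshold of 1. After median-ratio scaling TuPdi was called, at 2.20 (limma adjusted p = 4.25e-06). At 15 DPA TuPdi fell to 183, 248 and 156 FPKM, which is -3.79 (SE 0.76) on the log2 scale relative to 10 DPA and passed limma's test (adjusted p = 0.00261). At 20 DPA it fell further, to 9.14, 9.69 and 8.36 FPKM (log2 difference -4.26, SE 0.76, limma adjusted p = 0.00129). Both falls were called under every alternative run for them. At 25 DPA TuPdi had 17.8, 174 and 204 FPKM, higher than at 20 DPA (log2 difference 3.12, limma adjusted p = 0.0135), a call that was lost without 25 DPA library 2 (adjusted p = 0.0667) or 3 (adjusted p = 0.066), with the compared groups fitted alone (adjusted p = 0.133) and after median-ratio scaling, which left a log2 difference of 0.71 (adjusted p = 0.0398). Tuglup3 was listed at 0 in 25 DPA library 3, where TuPdi had 204 FPKM.

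The other transport genes were far less abundant than Tuglup3 and kept more of their level. Tuglup2 averaged 12.9 FPKM at 5 DPA, Tuglup4 25.8 and Tuglup6 18.7, against 1688 for Tuglup3, in FPKM and so per unit of transcript length. At 15 DPA Tuglup4 kept 33.4% of its 5 DPA mean, Tuglup6 24.6% and Tuglup2 9.51%, where Tuglup3 kept 2.31%. Tuglup2 fell at 15 DPA to 0, 1.09 and 2.58 FPKM, against 8.36, 7.86 and 9.51 FPKM at 10 DPA (log2 difference -2.29, SE 0.53, limma adjusted p = 0.00724). That call was lost with a pseudocount of 0.1 (adjusted p = 0.0765). Tuglup4 and Tuglup6 differed by -1.19 (adjusted p = 0.223) and -0.78 (adjusted p = 0.316) at 15 against 10 DPA, and neither passed limma's test. Tuglup4 passed without 25 DPA library 1 (adjusted p = 0.037) and with the compared groups fitted alone (adjusted p = 0.0164). At 20 against 15 DPA both fell, with limma log2 differences of -2.11 (adjusted p = 0.0192) for Tuglup4 and -1.64 (adjusted p = 0.0207) for Tuglup6, and Tuglup2 did not pass (-0.97, adjusted p = 0.151). After median-ratio scaling Tuglup4 was not called (-0.61, adjusted p = 0.645) and the sign of Tuglup6 turned (0.14, adjusted p = 0.872). Without 15 DPA library 2 or 20 DPA library 1 neither was called, and Tuglup6 was not called without 15 DPA library 3. A pseudocount of 5 left Tuglup6 at -0.72, past no threshold (limma adjusted p = 0.051). At 10 against 5 DPA none of the 3 passed limma's test (adjusted p = 0.412, 0.614 and 0.108 for Tuglup2, Tuglup4 and Tuglup6), and their differences of -0.51, -0.39 and -1.03 turned positive after median-ratio scaling, as that of Tuglup3 did. Tuglup6 was called lower at 10 DPA without 25 DPA library 1 (adjusted p = 0.00594), with the compared groups fitted alone (adjusted p = 0.00637) and with total FPKM scaling (adjusted p = 0.0146).

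**Figure D4:**
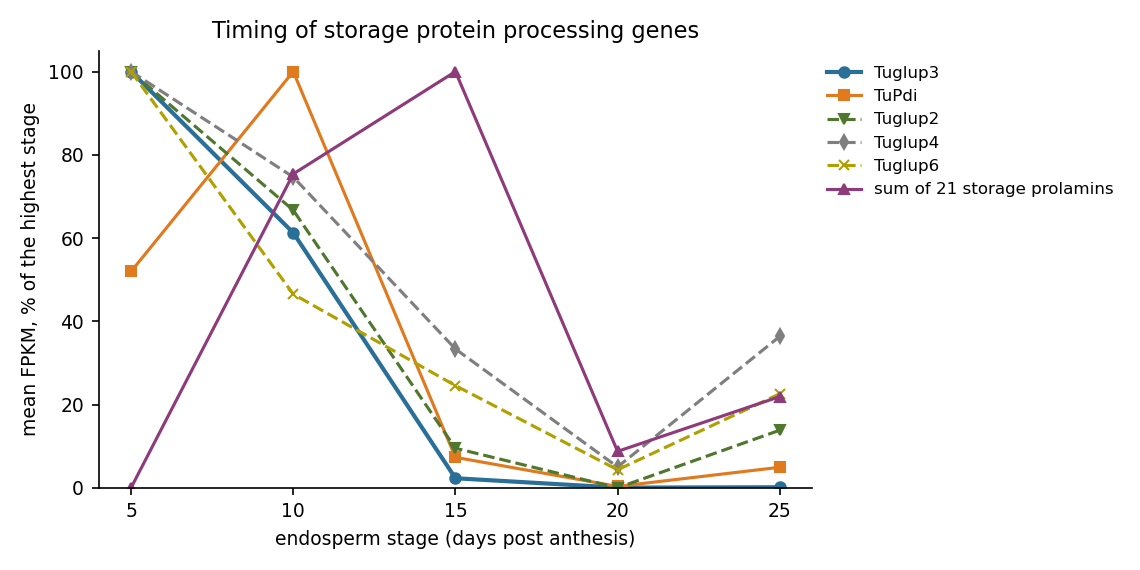
Mean FPKM of Tuglup3, TuPdi, Tuglup2, Tuglup4, Tuglup6 and the sum of 21 storage prolamin genes at each endosperm stage, as a percentage of the stage where each was highest (3 libraries a stage). At 15 DPA Tuglup3 is at 2.31%, TuPdi at 7.33% and Tuglup4 at 33.4% of their highest stage, while the prolamin sum is at its highest.

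Counting these 4 transport genes with 7 genes that the table names as regulators, 11 individually named genes stood beside Tuglup3. At 10 against 5 DPA 3 of 11 rose and 1 fell by limma, against 3.16% and 45.6% of all genes. TuSPA, a bZIP activator of wheat storage protein genes, rose to 17.9, 15.7 and 18.8 FPKM at 10 DPA, against 0.32, 0.60 and 1.69 FPKM at 5 DPA (log2 difference 3.37, limma adjusted p = 0.000161). TuWPBF, the prolamin box binding factor of the Dof family, rose by 3.30 (adjusted p = 0.000539). TuGAMYB, a MYB factor of cereal grains, rose by 1.92 (adjusted p = 0.0253) and TuOHP1, a bZIP gene named after a maize partner of Opaque2, fell by 1.69 (adjusted p = 0.0374). After median-ratio scaling TuOHP1 differed by -0.45 and lost its call (adjusted p = 0.553), and with total FPKM scaling TuGAMYB lost its own (adjusted p = 0.0602). With a pseudocount of 0.1 both were lost (adjusted p = 0.175 for TuOHP1 and 0.0798 for TuGAMYB). TuOHP1 also lost its call without any 1 of the 6 libraries compared, and TuGAMYB without any 1 of them but 10 DPA library 1. The count of 4 genes was 2 in each of those 5 cases without a 5 DPA library or without 10 DPA library 2 or 3. TuSPA, TuWPBF and TuGAMYB rose in the interval before the one in which Tuglup3 stood at 3.76% of its 10 DPA level. At 15 against 10 DPA 2 of 11 fell, Tuglup2 and TuPdi, against 16.7% of all genes. That count was 6 without 25 DPA library 1, 4 without 25 DPA library 2 or 3 and 6 with the compared groups fitted alone. At 20 against 15 DPA 9 of 11 fell, against 43.0% of all genes, and 2 of 11 did after median-ratio scaling. TuFUS3, named after an Arabidopsis regulator of seed maturation, TuGCN5, named after a histone acetyltransferase, and TuQM averaged 1.20, 26.2 and 680 FPKM at 5 DPA, the stage where each was highest.

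Flag leaf served as the vegetative tissue, and no Tuglup3 transcript was listed there. Endosperm at 10 DPA had 1012, 1036 and 1054 FPKM, against 0 in each of the 3 leaf libraries, so no fold is given. The leaf libraries were also among the shallowest, at 0.320, 0.542 and 0.609 of the depth of 10 DPA library 1. Being listed at 0 in all leaf libraries was shared by 7246 genes of the table, or 26.7%, and by 15.9% of the 19418 genes tested in endosperm. Among the 149 genes that averaged 1000 FPKM or more at 5 DPA, a threshold chosen after the values were seen, 9 were listed at 0 in every leaf library. They were Tuglup3 and 8 genes without annotation, of which TRIUR3_17260 was the highest, at 4551 ± 765 FPKM at 5 DPA (SD, n = 3). A set of 84 genes abundant in leaf (at least 1000 FPKM there and at least 10 times their 15 DPA mean) had a median of 452 to 510 FPKM in the 5 DPA libraries and 95.7 to 125 FPKM at 10 DPA, against 1794 to 2810 FPKM in leaf. Which tissue the Tuglup3 transcript of the 5 DPA libraries came from was not tested.

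The other genes of the storage protein path were present in leaf. TuPdi was higher in endosperm at 10 DPA, with 2615, 2835 and 2558 FPKM, against 108, 287 and 311 FPKM in leaf (log2 difference 3.64, SE 0.43, limma adjusted p = 0.000279). Tuglup4 had 18.1 to 20.8 FPKM in endosperm, against 1.78 to 14.2 FPKM in leaf, and missed the test (log2 difference 1.58, adjusted p = 0.058); it passed without leaf library 3 (adjusted p = 0.00986), after median-ratio scaling (adjusted p = 0.00384), with a pseudocount of 5 (adjusted p = 0.0394) and with a filter at 5 FPKM (adjusted p = 0.0488). Tuglup2 and Tuglup6 averaged 8.58 and 8.70 FPKM in endosperm, against 5.52 and 6.82 FPKM in leaf, and did not pass (limma adjusted p = 0.239 and 0.483). Without leaf library 1 the difference of Tuglup6 turned to -0.13. Of the 11 named genes 10 could be tested. Among the 8 of them that reached 1 FPKM in some leaf library, 2 were called higher in endosperm, TuPdi and TuGAMYB, and both calls held without any 1 of the 10 DPA endosperm libraries. Of all genes tested 21.7% were called higher. TuSPA and TuWPBF were listed at 0 in all leaf libraries, as Tuglup3 was. They entered the test only through their 3 endosperm libraries, so that their calls as higher were set by the filter and are not counted, and without any 1 of those libraries they were not tested. Of the 21 prolamin genes 5 entered in the same way, TuGlu-1Ax, TuGlu-1Ay, Gli-α-4, Gli-α-10 and Gli-α-12. The other 16 were called higher in endosperm, also without any 1 of the 10 DPA endosperm libraries. Of 28 starch synthesis related genes 4 entered only through endosperm (TuDPE1, TuGBSSI, TuSBEIIb and TuSSIIa). Of the other 24, 12 were called higher in endosperm and 5 lower, against 21.7% and 27.1% of all genes, and without any 1 of the 10 DPA endosperm libraries 10 of the 24 were called higher.

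Genes with a course like that of Tuglup3 were ranked by the Pearson correlation r of log2(FPKM + 1) over the 18 libraries. The comparison took 12576 genes with at least 10 FPKM in some group mean. The libraries share stage, depth and composition, so r describes likeness and carries no test. The median r of all these genes was 0.549, and 134 of them, or 1.07%, had an r above 0.95. The 21 prolamin genes had r from 0.056 to 0.182, and from -0.394 to -0.114 within the 15 endosperm libraries. The 11 other named genes, taken whatever their level, had r from 0.578 for TuSPA to 0.924 for TuFUS3, with TuPdi at 0.799. Within the 15 endosperm libraries they ran from 0.459 for TuSPA to 0.920 for TuFUS3, with TuPdi at 0.906. The median of all genes compared was 0.767 there. TuFUS3 reached at most 1.44 FPKM in any library, below the minimum of 10 FPKM for the comparison, so its r rests on values near the floor.

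The annotated gene most like Tuglup3 was TRIUR3_26896, of the MIKC MADS class of transcription factors known from flower and seed development, with r = 0.987 (Spearman 0.956). It stood at 48.2, 66.3 and 70.2 FPKM at 5 DPA. Its values were 34.6, 30.7 and 49.0 FPKM at 10 DPA and 3.96, 5.38 and 5.55 at 15 DPA. The next, TRIUR3_28216 of the same class (r = 0.987), was already low at 10 DPA, with 132 to 161 FPKM, against 697 to 781 FPKM at 5 DPA. TRIUR3_28215 (r = 0.977) and TRIUR3_24724 (r = 0.963) also belong to it, so 4 of the 10 annotated genes named by likeness were MIKC MADS genes. The 14 such genes compared ran from -0.473 to 0.987 in r, with a median of 0.788. The class was picked from this same list, so its r values are no separate support. Only 1160 of the 27121 genes carry an annotation, so this list is drawn from a small and selected part of the genes. All 4 MIKC MADS genes of the list were listed at 0 in every leaf library, which the ranking itself favours, as Tuglup3 was at 0 there. The other 6 were the CPP gene TRIUR3_14039 (r = 0.983), the AP2 gene TRIUR3_24036 (0.979), the starch synthase gene TuSSIIa (0.975), the ERF genes TRIUR3_28710 (0.969) and TRIUR3_22374 (0.961) and the LBD gene TRIUR3_33679 (0.956). By Spearman correlation, and likewise after median-ratio scaling, 6 of these 10 genes were among the 10 highest.

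**Figure D5:**
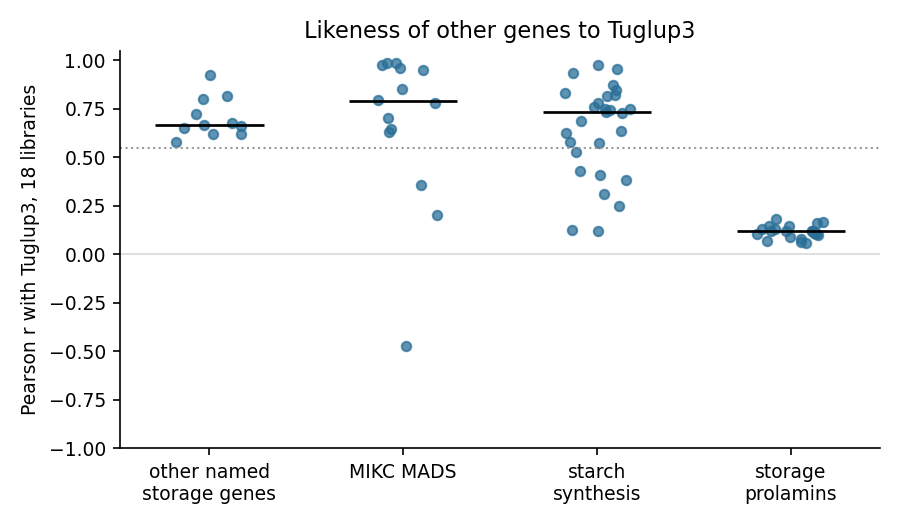
Pearson r with Tuglup3 over the 18 libraries, of log2(FPKM + 1), for 11 other named storage genes, 14 MIKC MADS genes, 28 starch synthesis related genes and 21 storage prolamin genes. Each point is a gene, bars are class medians and the dotted line is the median of all genes compared, 0.549. The prolamins lie between 0.056 and 0.182. The MIKC MADS class, picked from the list of genes most like Tuglup3, runs from -0.473 to 0.987.

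Over all genes, the closest to Tuglup3 was TRIUR3_03994, which carries no annotation, with r = 0.992. Its FPKM values were 503, 587 and 679 at 5 DPA, 238, 232 and 279 at 10 DPA and 14.7, 20.6 and 12.7 at 15 DPA. TRIUR3_19089 (r = 0.988) ranged over 493 to 550 FPKM at 5 DPA and over 510 to 601 FPKM at 10 DPA, which overlap, and over 5.13 to 16.7 FPKM at 15 DPA. TRIUR3_29158, TRIUR3_12776 and TRIUR3_17307 followed, with r of 0.986, 0.984 and 0.983, at 13.7, 34.2 and 22.8 FPKM on average at 5 DPA.

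Among the 28 starch synthesis related genes, r with Tuglup3 over the 18 libraries ran from 0.118 to 0.975, with a median of 0.731. Within the 15 endosperm libraries it ran from 0.457 to 0.988, with a median of 0.849. TuAGPL-plas2 (0.988), TuPHO1 (0.981), TuSSIIa (0.971) and TuSPS1 (0.969) were the highest there. Over the 18 libraries TuAGPL-plas2 and TuSPS1 had 0.409 and 0.429, and their leaf means were 57.5 and 301 FPKM. The highest over the 18 libraries were TuSSIIa, a starch synthase of amylopectin (0.975), TuSuSy2 (0.955), TuAGPS-plas2 (0.935), TuAGPL-cyto (0.875) and the debranching enzyme gene TuISA1 (0.845). TuAGPS-plas2 and TuAGPL-cyto are named as subunits of different forms, plastidial and cytosolic, of ADP-glucose pyrophosphorylase, which supplies the glucose donor. The other cytosolic subunit gene, TuAGPS-cyto, had 0.688. TuSSIIa stood at 4.03% of its 10 DPA mean at 15 DPA, close to the 3.76% of Tuglup3. As deposited both were highest at 5 DPA, as were 82.2% of all genes tested in endosperm. TuSuSy2 peaked instead at 10 DPA, at 1731 ± 27.5 FPKM, against 296 ± 11.3 FPKM at 5 DPA (SD, n = 3 each). The lowest r over the 18 libraries were those of the starch synthase genes TuSSIV (0.247), TuSSIIIb (0.123) and TuSSIIb (0.118), whose leaf means of 14.6, 6.87 and 72.5 FPKM contrast with the 0 of Tuglup3. At 15 against 10 DPA 11 of 28 starch genes fell by limma and 0 rose (15 in either direction at an unadjusted p under 0.05), against 16.7% and 1.28% of all genes. Without any 1 of the 6 libraries compared 6 or 7 were called, and after median-ratio scaling 4.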

How the data were processed

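RNA-Seq of 18 libraries was deposited by the authors as 1 FPKM value per gene and library (unit per the file headers). Per the submitters' processing notes Bowtie 0.12.2 was used; for the counting program, annotation and genome build the sources used here give nothing. Of 27121 identifiers 0 matched the RefSeq gene table, so no position or sequence is given. All sample descriptions name 1 lane. Tests ran in limma 3.58.1 (R 4.3.3), with a variance trend, on log2(FPKM + 1), in 1 fit of the 15 endosperm libraries and 1 fit of the 6 libraries of 10 DPA endosperm and flag leaf, over genes that reached 1 FPKM in 3 or more libraries (19418 and 16709 genes). P-values were Benjamini-Hochberg adjusted over all genes tested. The scripts were tested on simulated data. Depth is known only relative to 10 DPA library 1, so no counting interval is given and a value of 0 is described as listed at 0. P-values measure the spread between libraries, pooled over all groups of a fit.

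Members and lists were chosen with earlier results of these data known. Named genes were, by rule, all individually named genes, the 2 most abundant of each prolamin class, the 5 starch genes most and 3 least like Tuglup3, and the 10 annotated and 5 unannotated genes most like it. TuAGPL-plas2, TuPHO1 and TuSPS1 were added for their r within endosperm. Alternatives were pseudocounts of 0.1 and 5, no filter and a filter at 5 FPKM, median-ratio and total FPKM scaling, the compared groups alone, and leaving out each library; those for named genes, for starch genes, for the ratio and for likeness without a library were chosen after seeing the data.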

Additional observations from a re-analysis of the deposited data

How the results depend on the processing

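No paired analysis was possible because the columns carry running numbers that are not tied to the numbers of the samples. Scaled to the median ratio of all 18 libraries, the mean Tuglup3 level was 407 at 5 DPA, 614 at 10 DPA and 7.16 at 20 DPA, and at a total FPKM of 1000000 it was 1256, 574 and 19.7 at 5, 10 and 15 DPA. Its log2 difference after median-ratio scaling was 0.56 at 10 against 5 DPA, -3.98 at 15 against 10, -2.96 at 20 against 15 and -6.93 at 25 against 5 DPA; with total FPKM scaling it was -1.12 at 10 against 5 DPA. With a pseudocount of 0.1 it was -6.04 at 20 against 15 and -10.91 at 25 against 5 DPA, and with 5 it was -2.88 and -7.93. No Tuglup3 difference against flag leaf is given, as every leaf value was 0. After median-ratio scaling 0 of 21 prolamins were called at 20 against 15 DPA and 13 at 25 against 20 DPA. Of the 11 other named genes, 2 were called at 10 against 5 DPA with a pseudocount of 0.1, and 5 with total FPKM scaling, 2 higher and 3 lower. At 15 against 10 DPA 4 of them were called with a pseudocount of 5 or total FPKM scaling and 6 with the compared groups alone, and 2 at 20 against 15 DPA after median-ratio scaling. Of 28 starch genes, 5 were called at 15 against 10 DPA with a pseudocount of 0.1, 4 after median-ratio scaling and 18 with the compared groups alone. Among the 10 annotated genes most like Tuglup3, 6 were kept by Spearman correlation and 6 after median-ratio scaling.

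Leaving out 1 library gave Tuglup3 differences of -0.79 to -0.64 at 10 against 5 DPA, -4.89 to -4.49 at 15 against 10, -4.77 to -4.08 at 20 against 15, -0.30 to 1.10 at 25 against 20 and -10.22 to -8.82 at 25 against 5 DPA. Called prolamins ran from 0 to 6 at 25 against 20 DPA. Called genes of the 11 ran from 2 to 6 at 10 against 5 DPA, 2 to 6 at 15 against 10 DPA and 2 to 6 in endosperm against leaf, and called starch genes from 6 to 16 at 15 against 10 DPA and 14 to 22 against leaf. Against leaf, the low ends include members that were no longer tested: without an endosperm library 8 of the 11 named genes, 24 of the 28 starch genes and 16 of the 21 prolamins passed the filter. Signs turned for Tuglup2 (0.54), Tuglup4 (0.75) and Tuglup6 (0.12) at 10 against 5 DPA and for Tuglup6 (0.14) at 20 against 15 DPA after median-ratio scaling, and for Tuglup6 (-0.13, with a range of -0.13 to 1.08 over left-out libraries) in endosperm against leaf without leaf library 1; the cause was not tested. The shallow leaf libraries and the low FPKM values at 20 and 25 DPA limit what can be said of Tuglup3 there.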
